A study of Mus musculus with 4 samples.

Results

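Klf4 and Klf5 encode Kruppel-like factors, and their messenger RNA was compared here between Erbb2-transfected NIH3T3 cells and untransfected NIH3T3 cells. Both genes were chosen by their log2 ratios on these same 4 arrays, as KLF genes of opposite sign, so these ratios are described below without a test. Each was represented by 1 named probe with a value on all 4 arrays, and together they are 2 of 6327 genes measured on every array. The transfected line overexpressed Erbb2, a growth factor receptor with tyrosine kinase activity, while the untransfected line had normal Erbb2 expression per the labels. NIH3T3 cells are mouse fibroblasts of embryonic origin, kept as a permanent line. The labels give neither the vector nor the form of Erbb2, nor whether the transfected line was a clone or a pool.

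RNA of both lines was hybridised together on 4 two-colour cDNA arrays. On arrays 1 and 2 the transfected sample was labelled with Cy5, and on arrays 3 and 4 with Cy3. The design calls the arrays technical replicates, so there was 1 sample per line, and every SD and p-value below covers the spread between arrays only. The arrays were only weakly correlated with each other. Over all genes measured on every array, pairs of arrays had Pearson correlations from 0.123 to 0.202 and Spearman correlations from 0.091 to 0.208. Erbb2 itself and whatever else distinguishes the lines cannot be told apart. A positive log2 ratio is read as higher in the transfected line. That direction is likely but unstated: it assumes that ratios were first taken as Cy5 over Cy3. Ratios at the upper limit of the scale are positive on the first pair of arrays and negative on the second. On that assumption, this is read as a sign that the second pair was then turned. If the direction is wrong, every sign below turns together.

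Kruppel-like factors are transcription factors whose conserved zinc fingers, at the end of the protein, bind GC-rich and CACCC elements. KLF4 and KLF5 are close relatives that are known for opposite roles in many epithelia: KLF4 is found in differentiating cells and restrains division, while KLF5 is found in dividing cells and promotes it. In NIH3T3 fibroblasts Klf4 is known to be abundant during growth arrest, and Klf5 is known to be induced by growth factors and by oncogenic RAS. These are facts of other studies and not results of these arrays.

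The kind of element that the family recognises is shown in the promoter of Klf4, the member with an entry in the sequence table used here. The stretch holds the 250 bases before the annotated start of the gene, at chr4:55532476-55532725 on the minus strand of GRCm38.p6 from RefSeq. Capitals mark GC boxes, searched as GGGCGG on either strand (CCGCCC on the other).
Klf4 promoter: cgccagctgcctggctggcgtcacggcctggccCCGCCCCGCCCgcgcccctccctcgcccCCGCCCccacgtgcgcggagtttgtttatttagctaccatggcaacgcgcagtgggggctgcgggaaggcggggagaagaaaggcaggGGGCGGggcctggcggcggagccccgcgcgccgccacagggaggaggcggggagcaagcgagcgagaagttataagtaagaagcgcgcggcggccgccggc

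The stretch held 4 GC boxes, 3 of them read as CCGCCC, and a neighbouring pair overlapped by sharing a base. Of 32851 promoters in the table, 32.7% held a GC box in the same window and 4.09% held 4 or more. The letters CACCC, searched on both strands, were not in this window, whereas 52.0% of promoters held them. A match is a description of the sequence and not a binding site. Klf5 had no entry in the table.

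Klf5 was high in the transfected line on every array. Its log2 ratios were 2.09 and 2.72 on arrays 1 and 2 (transfected sample in Cy5) and 2.44 and 2.37 on arrays 3 and 4 (transfected sample in Cy3). The values lay in a span of 0.63 on the log2 scale, and turning the dyes left no visible offset. The mean was 2.40 ± 0.26 (SD, n = 4 arrays), a 5.29-fold higher level, with a mean of 2.40 in each dye orientation. Single arrays gave between 4.25-fold and 6.58-fold.

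Klf4 was below 0 on every array, but by very different amounts. Its log2 ratios were -2.18 and -0.96 on arrays 1 and 2 and -3.90 and -0.39 on arrays 3 and 4. The low and the high values were split between the dye orientations, each of which held a strong and a weak array. The mean was -1.86 ± 1.55 (SD, n = 4 arrays), a 3.63-fold lower level, with means of -1.57 over arrays 1 and 2 and -2.15 over arrays 3 and 4. Single arrays gave between 1.31-fold and 14.9-fold. Having 1 sign on all 4 arrays, as both genes did, applied to 22.6% of all genes, and a mean past 2-fold with 1 sign to 7.25%. Both genes were chosen by values of these same arrays, so these shares are no test of them. The mean of Klf4, with both orientations weighed equally, was -0.98 without array 3 and -2.73 without array 4.

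**Figure D1:**
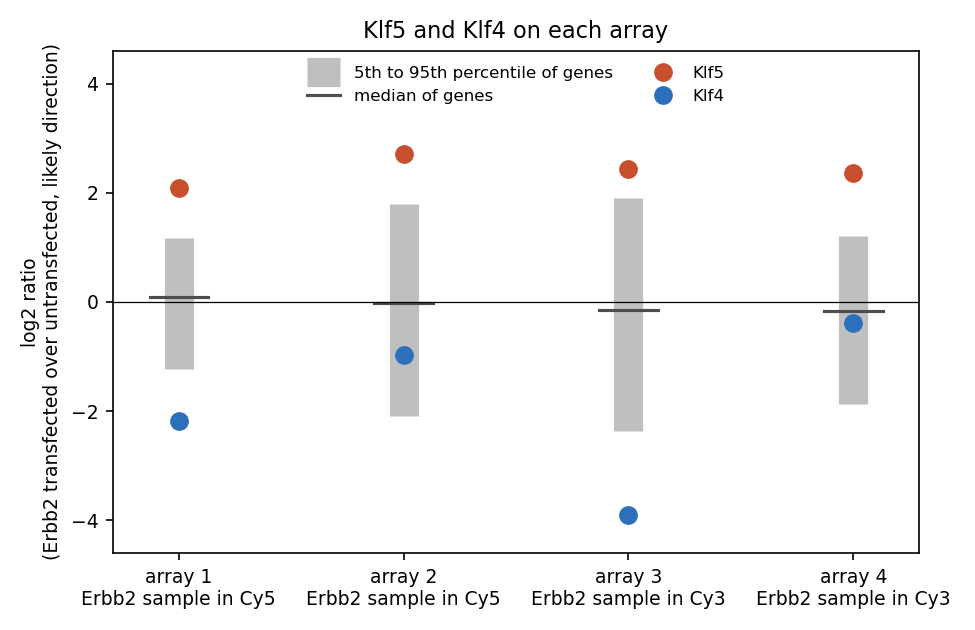
Log2 ratios of Klf5 (red) and Klf4 (blue) on each of the 4 arrays (likely direction: transfected over untransfected), with the 5th to 95th percentile of all 6327 genes (grey bar) and their median (line). Klf5 lies above the grey bar on all arrays, between 2.09 and 2.72; Klf4 lies below it on arrays 1 and 3 and inside it on arrays 2 and 4.

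Set against the other genes of each array, Klf5 stood near the upper end throughout. On arrays 1 to 4, 0.822%, 1.55%, 3.05% and 0.948% of genes had a higher ratio than Klf5. Klf4 stood near the lower end on arrays 1 and 3, where 1.07% and 1.20% of genes had a lower ratio. On arrays 2 and 4 the shares of genes below it were 16.8% and 38.1%, which places Klf4 well inside the distribution of array 4. The arrays differed in width, with a median absolute deviation of 0.649, 0.898, 1.04 and 0.753. After centring and scaling each array by that width, Klf4 had -2.92, -0.88, -3.02 and -0.25, so the split between arrays 1 and 3 and arrays 2 and 4 remained. The scaled values of Klf5 were 2.56, 2.54, 2.07 and 2.81.

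Across all genes, Klf5 had the 5th highest mean and Klf4 the 83rd lowest. The spread between arrays also set them apart from each other. Klf5 had a smaller SD than 93.1% of genes and Klf4 a larger SD than 88.8%, where the median SD was 0.70. Among the 17 genes with a mean of at least 2, Klf5 had the smallest SD, against a median of 1.77. Among the 179 genes with a mean of -1.5 or lower, 81 had a larger SD than Klf4 and 97 a smaller one, so the spread of Klf4 was ordinary for a gene that low. Both bounds were set after the values were seen.

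**Figure D2:**
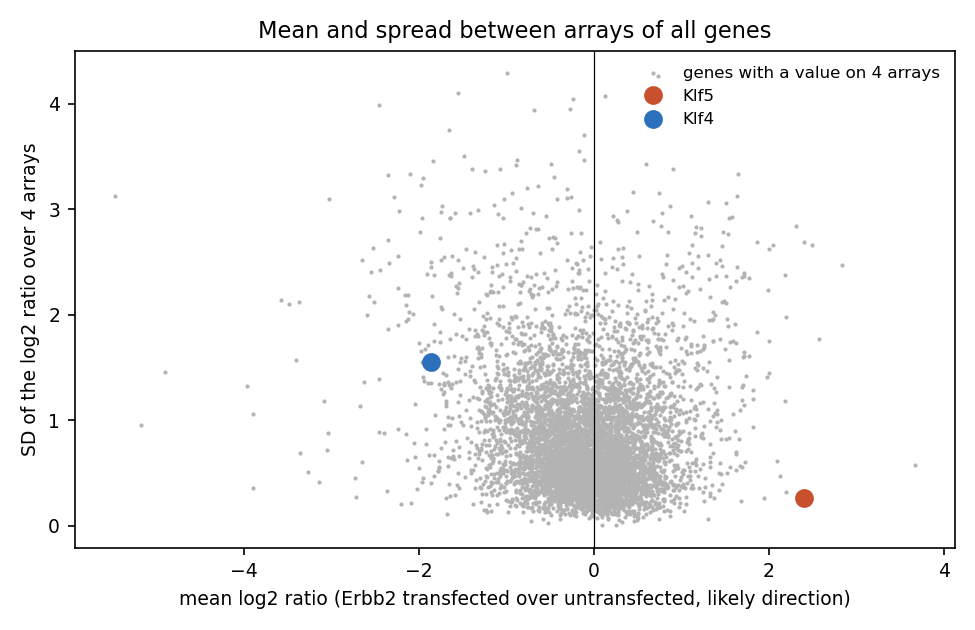
Mean log2 ratio (x axis, likely direction) and SD over the 4 arrays (y axis) of 6327 genes (grey), with Klf5 in red and Klf4 in blue. Klf5 combines a mean of 2.40 with an SD of 0.26, and Klf4 a mean of -1.86 with an SD of 1.55.

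The distance between both genes was 4.26, 3.68, 6.34 and 2.76 on arrays 1 to 4, each as the log2 ratio of Klf5 minus that of Klf4. Array 3 was highest and array 4 lowest, and both belong to the same dye orientation. The mean was 4.26 ± 1.52 (SD, n = 4 arrays), with 3.97 and 4.55 in the orientations with the transfected sample in Cy5 and in Cy3. Klf4 contributed 97.3% of the summed variance of both genes over the arrays. A constant that shifts a whole array leaves this difference unchanged, since it adds to both genes alike.

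The deposited ratios of Klf4 lay on values that many other probes shared. On array 3 its value of -3.899 was also the commonest value of the array (-0.899) minus 3, as a ratio of 1 to 8 is from a ratio of 1 to 1, and 14 probes had exactly this value. Around it (within 0.05 on either side) a step of 0.001 held 0.287 probes on average. On array 1 the value of Klf4 was shared by 8 probes, where a step nearby held 0.554. On arrays 2 and 4 the counts were 6 and 13, beside 3.25 and 7.66 nearby. The values of Klf5 were held by 1, 1, 3 and 3 probes on arrays 1 to 4, beside 0.564, 0.584, 0.535 and 0.218 nearby. On arrays 3 and 4 Klf5 thus also shared its value with other probes, more than a step nearby held. Intensities and backgrounds were not analysed here. The part of signal strength in the ratios of Klf4 and Klf5, and in the spread of Klf4, was not tested.

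The rows of array 1 and of arrays 2 to 4 drift apart further down the table, so the position of both probes was examined. The Klf5 probe is row 171 and the Klf4 probe row 1815, both in the first 6000 rows, which were read as deposited. In the 500 rows that hold Klf4, the mean Spearman correlation of array 1 with the other arrays was 0.208 as the rows stand, against -0.038 and 0.043 with offsets of 3 and 4 rows. In the 500 rows that hold Klf5 it was 0.131 as they stand, against 0.042 and 0.003. That mean of 0.131 rested mostly on array 2 (0.271), with 0.042 for array 3 and 0.079 for array 4. For arrays 3 and 4 the check of the Klf5 rows is therefore weak. These correlations run across probes, which are not independent replicates. Within 6 rows of Klf5 on either side, 1 of 38 values was as high as its mean. Within 6 rows of Klf4, 3 of 35 values were as low as its mean. Row means ran from -1.66 to 1.54 around Klf5 and from -1.31 to 1.58 around Klf4.

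**Figure D3:**
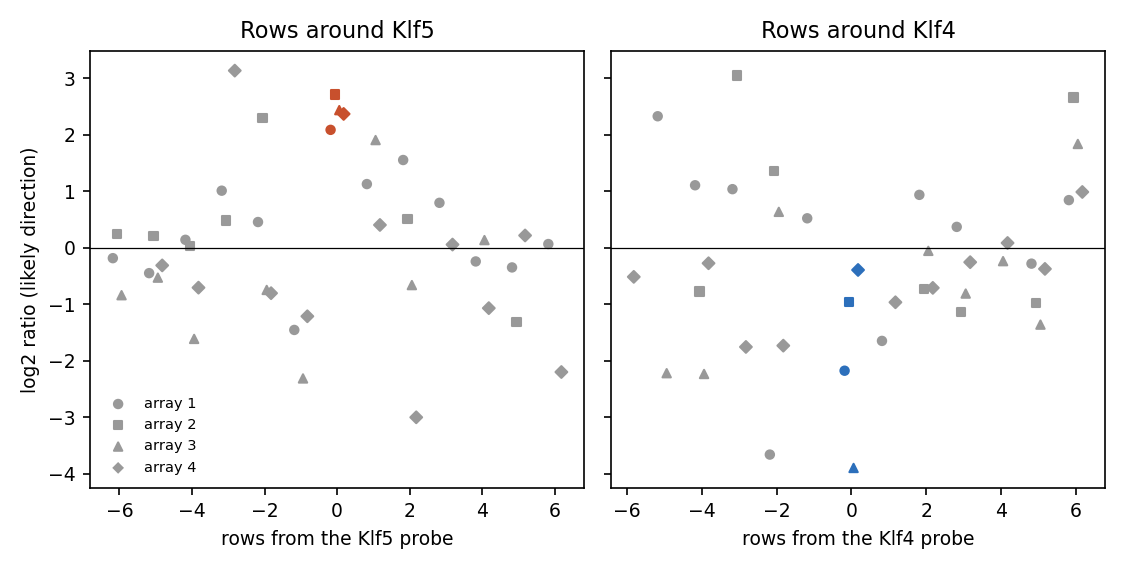
Log2 ratios (y axis) of the probes within 6 rows of Klf5 (left) and Klf4 (right), by array (symbols); the x axis is the distance in rows, and the coloured points at 0 are the members. The 4 Klf5 values lie together between 2.09 and 2.72, while the Klf4 values run from -3.90 to -0.39 among scattered neighbours.

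Of 18 KLF genes listed, 11 had a named probe and 9 had a value on all 4 arrays. Among the other 7 measured on all arrays, 1 (Klf2) was past 2-fold with the same sign on every array, which is the size rule used below; 7.25% of all genes met it, 2.39% on the higher and 4.87% on the lower side. Limma's test over all genes called 0 genes (0% at an adjusted p under 0.05; smallest adjusted p = 0.105), and 11.5% of genes had an unadjusted p under 0.05, 4.05% on the higher and 7.49% on the lower side. Of the other 7 KLF genes, 2 had such a p, Klf2 and Klf13. The median of the 9 genes was -0.05, next to -0.08 for all genes.

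The factors that, like KLF4 and KLF5, are known to act with acetyltransferases are KLF1, KLF2, KLF6 and KLF7. Klf2, which holds endothelial cells and T cells in a quiescent state, had log2 ratios of -1.42, -3.25, -1.78 and -0.09 on arrays 1 to 4. All lay below 0, with array 4 close to it, and the mean was -1.63 ± 1.30 (SD, n = 4), with limma's unadjusted p = 0.0168 and adjusted p = 0.381. The value on array 4 lay above that array's median of -0.16. With arrays centred on their medians, Klf2 therefore had both signs and did not meet the size rule. The Klf2 probe lies in rows where arrays 2 to 4 were read 3 rows higher; as deposited its mean was -0.25. Klf6, which is known as a growth suppressor, had -1.20, -0.22 and -1.02 on arrays 1, 3 and 4 and no value on array 2. Klf7, a factor of neuron outgrowth, had -0.45, 0.07 and 0.16 on arrays 1, 2 and 4, and another Klf7 probe, in the rows left out, had -0.33 on array 1. Klf1, the erythroid factor that activates the beta-globin gene, had 0.90, 0.07, -0.06 and -0.50, with both signs and a mean of 0.10 ± 0.58, or -0.61 with the rows as deposited.

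Klf3, whose protein recruits the CtBP co-repressors, had values of both signs with a mean of 0.02 ± 0.50. Further Klf3 probes, in the rows left out, had -0.04, -0.93 and 0.09 on array 1. The factors that recruit the Sin3 co-repressor were measured by Klf9, Klf13 and Klf16. Klf13, also known for its part in T cells, was below 0 on 4 of 4 arrays with -0.40, -0.18, -1.01 and -1.55 and a mean of -0.78 ± 0.62 (limma, unadjusted p = 0.0394, adjusted p = 0.421). Klf9 had -0.05 ± 0.60 and Klf16 -0.13 ± 0.44, each above 0 on 2 arrays and below on 2. The probes of Klf9 lie in moved rows and differed in sign on array 3, with -0.88 and 2.10. With the rows as deposited the mean of Klf9 was -0.37. Klf17, a germ cell and early embryo factor, ran from -1.04 on array 2 to 3.72 on array 4 around a mean of 0.66 ± 2.14, and its mean was -0.14 without array 4 and -0.43 with the rows as deposited. In the order of means from high to low, Klf5, Klf17, Klf1, Klf3, Klf9, Klf16, Klf13, Klf2 and Klf4, 7 of 8 neighbouring pairs lay closer together than the larger SD of the pair. Klf5 and Klf17 are such a pair, 1.74 apart beside the SD of 2.14 of Klf17, and so are Klf2 and Klf4, 0.23 apart. The exception was Klf16 and Klf13, 0.65 apart beside an SD of 0.62. Sequence shared between KLF genes can cross-hybridise on cDNA probes, and this was not tested.

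**Figure D4:**
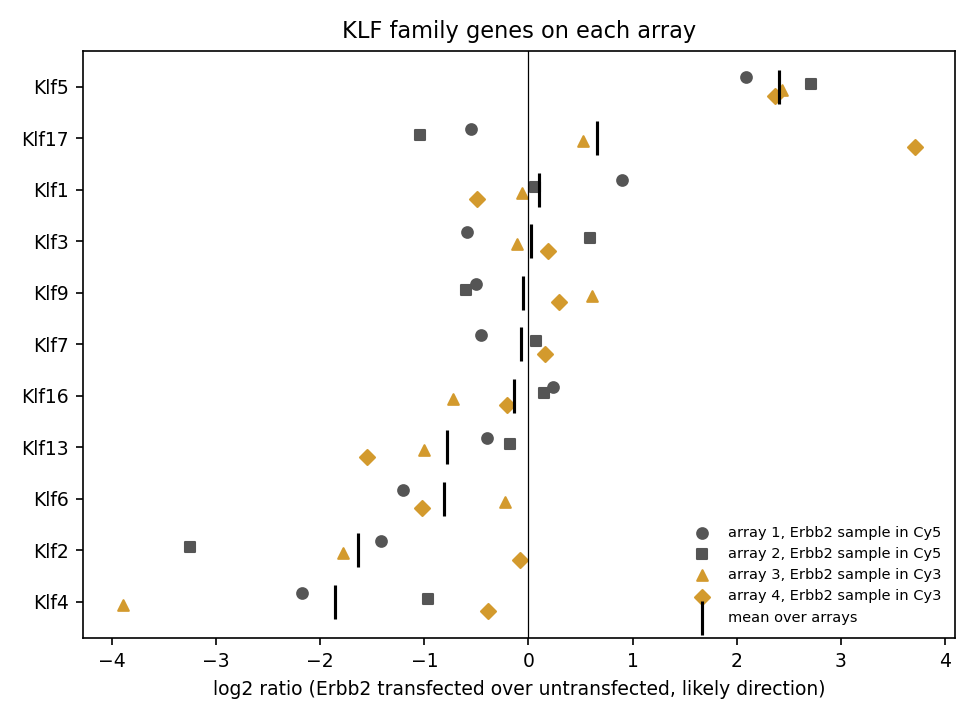
Log2 ratios (x axis, likely direction) of 11 KLF genes on each array (symbols; grey with the transfected sample in Cy5, orange in Cy3), ordered by their mean (vertical bar). The 4 Klf5 values lie between 2.09 and 2.72, with 1 Klf17 value (3.72, array 4) further right; Klf4 and Klf2 have the lowest means, with wide spreads. Klf6 and Klf7 have values on 3 arrays.

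The related SP factors, which bind the same GC boxes, had 2 named genes of 9 and none measured on all 4 arrays. Sp1 had 0.22, 1.01 and 0.81 on arrays 1, 3 and 4, and Sp6, a factor of tooth and skin epithelium, had 0.87, -1.16 and -1.86. Both are read from rows that were moved back on arrays 2 to 4. As deposited, Sp1 had no value on arrays 2 and 3 and -0.63 on array 4. Sp6 had -1.06, 1.08 and -1.03 on arrays 2 to 4 as deposited, so its signs followed the dye orientation only after the move. Another Sp1 probe, in the rows left out, had -1.17 on array 1.

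Genes known to act around KLF4 and KLF5 were read from lists, and 5 of 52 such genes other than Klf4 and Klf5 were past 2-fold with 1 sign, where 7.25% of all genes were. These were Klf2, Fosl1, Birc5, Pdgfa and Ndrg1, of which Klf2 was lower and the other 4 higher. Nothing particular to the lists is read from this count.

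Growth factors and oncogenic RAS are known to induce Klf5. The list for growth factor and RAS-ERK signalling mixes genes of the pathway with genes that respond to it or restrain it, such as Fosl1 and Dusp1. Not all of its genes therefore lie upstream of Klf5. It had 11 of 28 genes measured and a median of 0.39, beside -0.08 for all genes. Without array 3 that median was 0.15, and with the rows as deposited -0.10. Of these 11 genes 1 was past 2-fold on the higher side and 0 on the lower side, beside 2.39% and 4.87% of all genes. An unadjusted limma p under 0.05 was found for 3 (Fosl1 and Ier3 higher, Dusp1 lower), beside 11.5% of all genes. Fosl1, an AP-1 subunit that ERK signalling is known to induce, had 0.88, 1.18, 1.27 and 1.66 on arrays 1 to 4. It was above 0 on all arrays with little spread, and its mean was 1.25 ± 0.32 (SD, n = 4; limma, unadjusted p = 0.00631, adjusted p = 0.310). Ier3, an early response gene, had a mean of 0.80 ± 0.52, above 0 on 4 arrays, but 0.08 when rows between the stretches of known offset were kept. Dusp1, a phosphatase that switches off MAP kinases, had -0.80 ± 0.43 and was below 0 on 4 arrays. Myc had values of both signs, from -1.74 on array 3 to 2.40 on array 2, and the serum response factor gene Srf had -0.54 ± 0.64.

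Genes that KLF5 is known to activate in growth had 8 of 18 members measured and a median of 0.15, which ran from -0.07 to 0.50 without 1 array. Of these, 2 were past 2-fold on the higher side and 0 on the lower, beside 2.39% and 4.87% of all genes. An unadjusted limma p under 0.05 was found for 1 (Birc5), beside 11.5% of all genes. Birc5, which encodes the apoptosis inhibitor survivin, had 0.10 on array 1 and 1.90, 2.02 and 1.77 on arrays 2 to 4. Array 1 stood apart, and the mean was 1.45 ± 0.91 (limma, unadjusted p = 0.0130, adjusted p = 0.369). Pdgfa, a growth factor of mesenchymal cells, had 0.42, 0.96, 4.07 and 0.33. Its mean of 1.44 ± 1.77 (limma, unadjusted p = 0.0727, adjusted p = 0.470) rested on array 3, and was 0.51 without it and 2.38 without array 4. Both genes are read from rows that were moved back: as deposited, Birc5 had a mean of -0.24 and Pdgfa -0.30. The replication clamp gene Pcna had 0.10 ± 0.78 and Ppard, a lipid-sensing nuclear receptor gene, 0.70 ± 1.06. Mcl1, which encodes an apoptosis inhibitor, had 0.21 ± 1.08, above 0 on array 4 alone, and the matrix protease gene Mmp9 had 0.09 ± 0.71. Ccnd1, a cyclin gene that KLF5 is known to raise and KLF4 to lower, was not among the genes measured on all arrays.

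Genes listed for growth arrest under KLF4 had 6 of 19 members measured and a median of 0.28, or 0.06 without array 3. The list mixes genes that KLF4 is known to activate and to repress, so its median has no single expected direction. In this list 1 gene was past 2-fold, on the higher side, where 2.39% of all genes were. It was Ndrg1, a stress-responsive growth suppressor, with 1.70, 1.07, 0.85 and 1.20 on arrays 1 to 4 and a mean of 1.21 ± 0.36 (limma, unadjusted p = 0.00855, adjusted p = 0.338); as deposited its mean was 0.57. Cdkn1a, the CDK inhibitor gene that KLF4 is known to activate, lay close to 0 with 0.23, 0.09, 0.16 and 0.35. Its mean was 0.21 ± 0.11 (limma, unadjusted p = 0.477). Ccne1, a cyclin gene that KLF4 is known to repress, had 0.49 ± 0.25 and was above 0 on 4 arrays (limma, unadjusted p = 0.134). The cyclin gene Ccnd2 had -0.56 ± 0.51 and Notch1 0.34 ± 1.07.

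None of the measured partners and turnover genes of the factors was past 2-fold with 1 sign, where 7.25% of all genes were. Of the co-activators and co-repressors, 7 of 14 were measured, 0 were past 2-fold, and the median was 0.09, turning to -0.18 without array 4. Smarca4, the ATPase of a chromatin remodelling complex, had 0.996 ± 0.80 and Set, an inhibitor of histone acetylation that binds KLF5, had 0.80 ± 0.32, both above 0 on 4 arrays; their adjusted limma p was 0.421 each. With the rows as deposited Set had -0.14. The deacetylase gene Hdac2 had -0.29 ± 0.96 and the acetyltransferase gene Kat2b -0.40 ± 0.30. Of the ubiquitin ligases and other turnover genes, 4 of 11 were measured and 0 were past 2-fold. Fbxw7, whose product marks KLF5 for degradation, had 0.45 ± 0.75, and Vhl, whose product marks KLF4, had 0.64 ± 1.18. Both SDs exceeded the means. The ligase genes Smurf1 and Smurf2 had 0.11 ± 0.14 and 0.28 ± 0.51.

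Smooth muscle and contractile genes, which KLF4 is known to repress and KLF5 is known to regulate in muscle, had 8 of 18 members measured. Of these, 0 were past 2-fold with 1 sign, beside 7.25% of all genes. The median was -0.29 (-0.01 without array 1, and 0.02 in the first 6000 rows). The tropomyosin gene Tpm2 had -1.74 ± 2.07 with 1 array above 0, and its mean was -0.83 without array 3, -2.65 without array 4 and -0.24 with the rows as deposited. The caldesmon gene Cald1 had -0.88 ± 0.25 with 4 arrays below 0, or -1.37 in the first 6000 rows alone. The vinculin gene Vcl had -0.79 ± 1.66, or -0.04 without array 1. Tpm1 had -0.33 ± 0.29. Of the pluripotency network 1 of 12 genes was measured on all arrays, Stat3 at 0.14 ± 0.41.

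**Figure D5:**
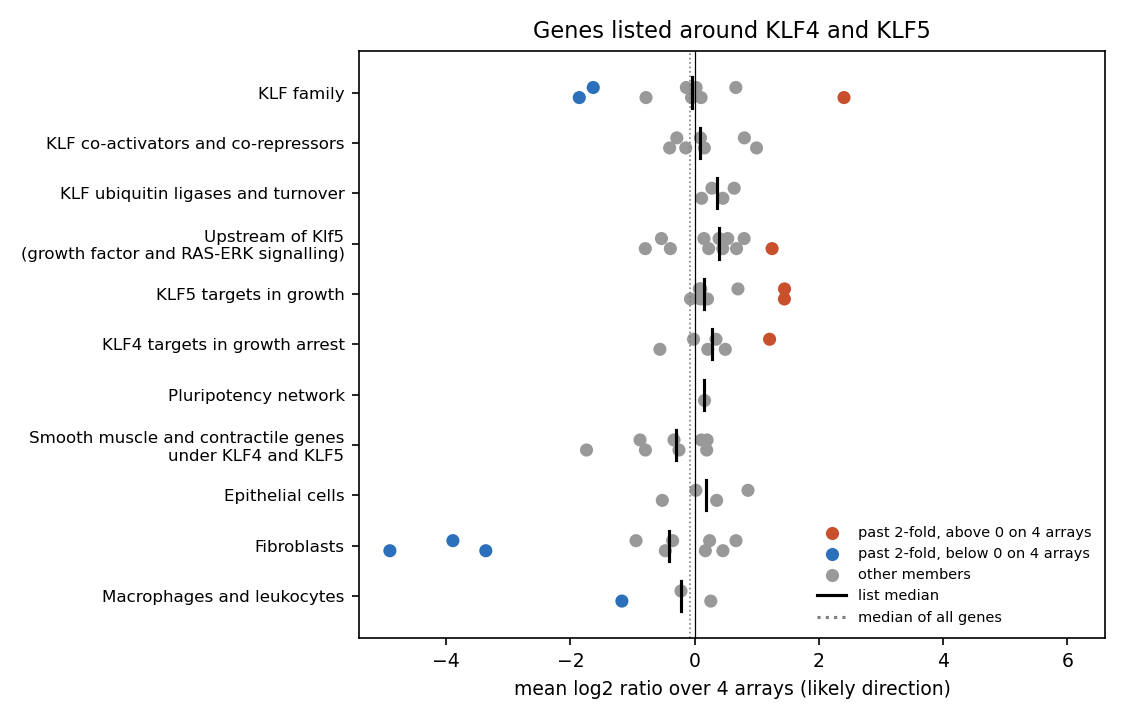
Mean log2 ratio over 4 arrays (x axis, likely direction) of the listed genes with a value on every array, 1 point a gene; red and blue points are past 2-fold with 1 sign on all arrays, black bars are list medians and the dotted line is the median of all genes (-0.08). Klf5 (2.40), Birc5 (1.45), Pdgfa (1.44), Fosl1 (1.25) and Ndrg1 (1.21) are the red points.

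Because the arrays give ratios and no levels, they do not show whether either line expressed the markers of fibroblasts or of other cells. Epithelial markers, of interest because KLF4 and KLF5 are epithelial factors, had 4 of 18 members measured, 0 past 2-fold and a median of 0.19, with medians from -0.33 to 0.49 without 1 array. The tight junction gene Cldn3 had 0.86 ± 1.0, the keratin gene Krt8 0.35 ± 0.73, Tjp1 0.02 ± 0.82 and Epcam -0.52 ± 0.33. In the first 6000 rows alone Epcam had -1.09. Fibroblast markers had 10 of 16 measured, with a median of -0.41. Of these, 3 were past 2-fold, all lower, namely Col1a1 (-4.91 ± 1.46), Fn1 (-3.89 ± 0.36) and Col1a2 (-3.36 ± 0.69). As background for each marker list, 7.25% of all genes were past 2-fold with 1 sign, 2.39% higher and 4.87% lower. Vim, which encodes vimentin, had 0.66 ± 0.18, and the other fibroblast genes Prrx1, Loxl1 and Pdgfra had -0.94 ± 0.89, -0.47 ± 0.57 and 0.45 ± 1.85. Of 12 macrophage and leukocyte markers 3 were measured; Lyz2 was past 2-fold at -1.17 ± 0.70, Aif1 had 0.26 ± 0.996 and Cd68 -0.22 ± 0.39. With the rows as deposited Col1a2 had -1.59, Fn1 -3.07, Vim 0.21 and Lyz2 -0.36. In the first 6000 rows alone Loxl1 had -1.30. The part of any of these in the ratios of Klf4 and Klf5 was not tested.

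The genes nearest to each member were taken by Euclidean distance over the 4 log2 ratios, where the median gene was 5.20 from Klf5 and 4.73 from Klf4, and the members were 8.92 from each other. Nearest to Klf5 was Gpnmb, a transmembrane glycoprotein gene, at 0.862, with 2.18, 2.16, 1.84 and 2.63. Then came Prkg2, a cGMP-dependent kinase gene, at 0.933, Adam19, a metalloproteinase gene, at 1.15, Sox9, a transcription factor gene of cartilage and epithelial progenitors, at 1.26, and Fip1l1, a gene of messenger RNA polyadenylation, at 1.58. Sox9 had 2.28, 1.69, 2.01 and 1.80 and, like Klf5, a small spread (mean 1.94 ± 0.26); its mean was 0.94 when rows between the stretches were kept and 0.50 as deposited, and both of these settings add a second probe.

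Nearest to Klf4 was Itgb5, an integrin subunit gene with 3 probes, at 0.612. Its log2 ratios of -1.95, -0.76, -3.37 and -0.40 had the same low arrays 1 and 3 as Klf4. Zdhhc7, a palmitoyltransferase gene, followed at 1.02, Col6a2, a collagen VI chain gene, at 1.18, Parl, a mitochondrial protease gene, at 1.19, and Fscn1, an actin-bundling protein gene, at 1.23. All 5 had their lowest value on array 3, between -4.31 and -3.27, which the measure of distance asks for. Col6a2 rests partly on moved rows, and had 0.30 with all rows as deposited, as Fscn1 had -0.44. Without array 3 the means of Itgb5, Zdhhc7 and Col6a2 were -0.88, -0.95 and -0.94, beside -0.98 for Klf4, while Parl had -0.39 and Fscn1 -1.69.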

How the data were processed

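The authors deposited log2 ratios of both channels of each array; neither the labels nor the file header name the software, background correction or normalization. Arrays were not centred (medians of all probes 0.138, 0.021, -0.162 and -0.223). The annotation of the platform gives a single symbol for 14030 of 20355 probes and several for 5, and 6320 are unnamed here; 13994 matched RefSeq genes (GRCm38.p6) by gene identifier. A value was present for 94.6%, 81.0%, 76.8% and 89.4% of probes on arrays 1 to 4. Intensities are not used here, so the number of arrays limits the precision. Erbb2 had 0 named probes, so it could not check the labels.

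Values beyond 15 either way were set to missing (63, 120, 121 and 114). Rows 1 to 6000 were read as deposited; for rows 8001 to 18000 arrays 2 to 4 were read 3 rows higher, and from row 18301 on 4 rows higher. The other 2300 rows were left out. Each gene took the mean of its probes per array, and limma 3.58.1 (R 4.3.3; lmFit, eBayes, dye term, Benjamini-Hochberg) was run on 6327 genes. It was tested on simulated data with 200 changed genes, where it recovered the direction of nearly all changes. It called 0 of them at a log2 size of 1 and 0 at a log2 size of 2, and 81% at a log2 size of 4. A count of 0 therefore does not show that no gene differed. Members and lists were chosen with earlier results of these data known. Text names Klf4, Klf5, all measured KLF and SP genes, in each other list the genes past 2-fold with 1 sign and up to 4 more by size, and the 5 genes nearest to each member. Promoter sequence came from RefSeq.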

Additional observations from a re-analysis of the deposited data

Results flagged for a closer look

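In 6 of 73 values checked over the 4 arrays (genes named here, list medians and the difference between Klf5 and Klf4), 1 array lay far from the other 3, with a gap to the nearest, over the whole range, above the 95% critical value of Dixon's test. Chance gives about 5% for unselected, independent values, which these are not. Neither Klf4 nor Klf5 was among them. Array 3 was high for Smarca4 (2.20 against 0.49 to 0.68, ratio 0.891), for Pdgfa (4.07 against 0.33 to 0.96, ratio 0.831) and for the median of the growth factor and RAS-ERK list (0.42 against 0.14 to 0.17, ratio 0.897). Array 1 was low for Kat2b (-0.85 against -0.27 to -0.22, ratio 0.918), for Birc5 (0.10 against 1.77 to 2.02, ratio 0.868) and for Ccnd2 (-1.32 against -0.33 to -0.27, ratio 0.941). Ccnd2 also had a capped value, and its mean was -2.71 with such values kept, against -0.56 without them.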

How the results depend on the processing

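Klf4 and Klf5 kept their sign and stayed within 1 SD of their mean under centring, scaling, every choice of rows, medians of probes, capped values kept, and every probe on its own. This is no test, since both have 1 probe in the first rows, which most of these choices leave as they are. Without 1 array, Klf4 ranged from -2.73 to -0.98, Klf5 from 2.25 to 2.56 and their difference from 3.37 to 5.15. With the direction turned, Klf4 had 1.86, Klf5 -2.40 and the difference -4.26. Limma's count of 0 genes became 3 with arrays scaled or with the median of probes, and 6 without the dye term or with every probe on its own; it was 0 without any 1 array (0 to 0). The 459 genes past 2-fold with 1 sign became 215 in the first 6000 rows, 978 at 1.5-fold and 601 to 775 without 1 array, where 3 signs must match. The 5 listed genes past 2-fold became 3 with arrays scaled and as deposited, 2 in the first 6000 rows and 11 at 1.5-fold, and 5 to 7 without 1 array. With arrays centred they became 4, all higher. Klf2 then dropped out, as did Birc5, whose value on array 1 lay at that array's median of 0.095. Smarca4 came in with a mean of 1.05. As deposited, 3 genes with means beyond 1 either way turned sign, Birc5 (-0.24), Pdgfa (-0.30) and Col6a2 (0.30), and so did the means nearer 0 of Klf1 (-0.61), Klf17 (-0.43), Set (-0.14), Smurf1 (-0.26), Mcl1 (-0.01), Pcna (-0.20), Stat3 (-0.13), Tjp1 (-0.63) and Cd68 (0.41); of 744 values of 60 other named genes, 714 moved by less than 1 SD. The causes were not tested, other than fewer genes or a lower bound by construction. No paired analysis was possible because there is 1 group of arrays and no replicate number is shared between groups; each ratio already compares both lines within its array.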
